A study of Drosophila melanogaster with 2 samples.

Results

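These 458 DREF peaks had their summits inside protein-coding sequence, more than 250 bp from the start of every annotated transcript. They made up 8.65% of the 5292 peaks that the conservative list places on the 6 main chromosome arms. Members were chosen by position alone: the summit had to lie in a coding exon of a protein-coding gene. In all, 512 summits lay in coding sequence, of which 54 were within 250 bp of a start and were not members. Chromatin immunoprecipitation and sequencing (ChIP-seq) was done on whole Drosophila melanogaster embryos of 0 to 24 hours, from flies of the Dref-GFP strain, whose inserted transgene makes a Dref-eGFP fusion. That protein was pulled down with an antibody to GFP, and the chromatin was sonicated to 200 to 800 bp. There are 2 biological replicates of this 1 group, no second genotype or treatment, and the labels name a possible control experiment without saying how it was used. The peaks describe the tagged protein in mixed cell types of the whole embryo, so they assign no member to a tissue.

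DREF is named for the DNA replication-related element (DRE) and is a zinc finger protein with a BED-type DNA-binding domain. It binds this element, the palindrome TATCGATA, and is known for its place at promoters of genes for DNA replication, growth and cell division, where BEAF-32, an insulator protein, can bind an overlapping site. Its known sites lie mostly near gene starts and not in coding sequence.

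The sequences below show the range of these peaks: the 4 strongest for which sequence is given, then 3 from the middle of the order by signal. Each runs from 100 bases before the summit to 100 bases after it, on the plus strand of the Release 6 assembly (dm6) from RefSeq, and capitals mark a match to the DRE with at most 1 mismatch. The windows are chrX:2714700-2714900 in CG2694, chr3L:2558242-2558442 in msn, chr3R:29923798-29923998 in Jon99Cii, chr3R:28485617-28485817 in CG1894, chr2L:15164699-15164899 in CG4168, chr3L:8278280-8278480 in Dscam4 and chr3L:20360696-20360896 in Prim2.
CG2694: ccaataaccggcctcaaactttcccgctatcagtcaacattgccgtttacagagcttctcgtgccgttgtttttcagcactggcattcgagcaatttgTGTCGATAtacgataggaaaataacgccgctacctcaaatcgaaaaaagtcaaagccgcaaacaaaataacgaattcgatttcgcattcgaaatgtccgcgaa
msn: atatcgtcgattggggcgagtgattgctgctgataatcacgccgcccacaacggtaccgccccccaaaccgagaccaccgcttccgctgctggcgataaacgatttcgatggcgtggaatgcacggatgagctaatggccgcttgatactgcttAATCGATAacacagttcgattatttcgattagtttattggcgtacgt
Jon99Cii: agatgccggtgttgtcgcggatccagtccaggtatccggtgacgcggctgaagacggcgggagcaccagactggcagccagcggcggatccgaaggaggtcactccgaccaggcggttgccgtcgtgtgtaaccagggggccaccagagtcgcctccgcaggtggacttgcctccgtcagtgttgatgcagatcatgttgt
CG1894: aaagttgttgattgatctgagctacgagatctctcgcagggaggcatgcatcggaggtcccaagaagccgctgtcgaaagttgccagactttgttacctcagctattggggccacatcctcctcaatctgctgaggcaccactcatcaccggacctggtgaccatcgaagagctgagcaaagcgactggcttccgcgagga
CG4168: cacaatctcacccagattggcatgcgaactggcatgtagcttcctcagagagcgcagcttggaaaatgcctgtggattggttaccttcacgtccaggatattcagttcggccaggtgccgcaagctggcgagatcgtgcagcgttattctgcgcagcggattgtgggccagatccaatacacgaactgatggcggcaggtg
Dscam4: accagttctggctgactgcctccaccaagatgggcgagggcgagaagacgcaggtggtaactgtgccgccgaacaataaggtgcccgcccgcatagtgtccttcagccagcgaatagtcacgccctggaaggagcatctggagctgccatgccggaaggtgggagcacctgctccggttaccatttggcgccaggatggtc
Prim2: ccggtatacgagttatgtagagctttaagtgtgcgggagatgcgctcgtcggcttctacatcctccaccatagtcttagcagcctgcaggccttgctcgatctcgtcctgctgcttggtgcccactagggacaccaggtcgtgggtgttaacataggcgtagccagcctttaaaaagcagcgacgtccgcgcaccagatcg
Neither CG2694 nor msn held the exact DRE, and the other 5 windows held no match with 1 mismatch either. In CG2694 the near match began 2 bases before the summit, and in msn it began 54 bases after it. The GC content of these windows was 43.8% in CG2694 and 51.2% in msn, and 54.7% to 63.7% in the other 5.

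The coding-sequence peaks were weak as a group. The deposited signal, the authors' own measure of peak strength, had a median of 77.8 over the 458 peaks (quartiles 72.7 and 84.2, lowest 2.73, highest 656). The other 1167 peaks away from starts had a median signal of 88.7, and the 3667 peaks within 250 bp of a start had a median of 773. A peak is called weak here when its deposited q-value is above 0.05, and 441 of the 458 coding-sequence peaks were weak (96.3%, 95% Wilson interval 94.1% to 97.7%). Among the other peaks away from starts 726 of 1167 were weak (62.2%, interval 59.4% to 64.9%), and the shares differed by two-sided Fisher's exact test (p = 1.5e-53, Benjamini-Hochberg adjusted over 6 tests p = 8.9e-53). At starts 10.6% were weak. Put the other way, coding-sequence peaks were 28.4% of the 1555 weak peaks of the list and 0.455% of its 3737 strong peaks. These tests count each peak as independent, although 28 of the 458 overlapped another peak of the list.

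**Figure D1:**
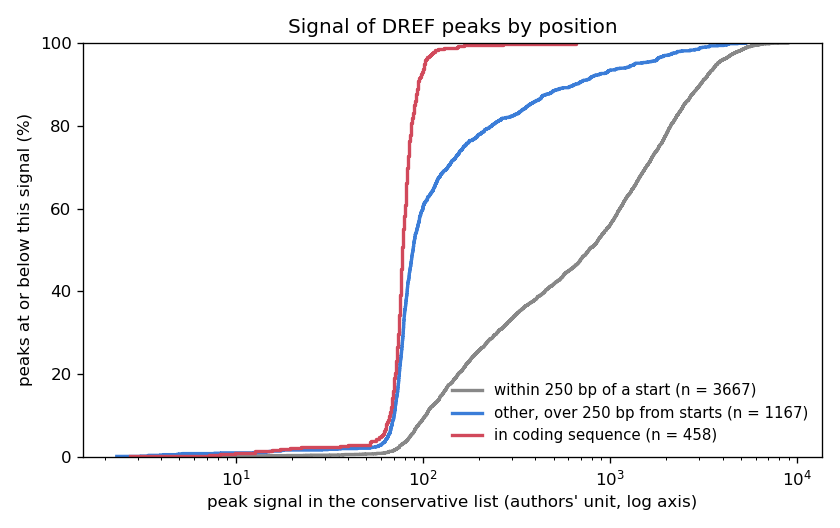
Cumulative share of peaks (%) against the authors' peak signal (log axis) for the 458 coding-sequence peaks, the 1167 other peaks away from starts and the 3667 peaks within 250 bp of a start. The coding-sequence curve rises almost wholly between signals of 60 and 100, which hold 403 of the 458 peaks (88.0%).

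The signals in each replicate, taken from the overlapping peak with the nearest summit in that replicate's own ranked list, were equally narrow. In replicate 1 the median was 40.5 (quartiles 36.9 and 44.8, 454 peaks with a match), and in replicate 2 it was 38.4 (35.4 and 43.2, 453 peaks). The median ratio of replicate 2 to replicate 1 was 0.951, with 177 peaks above 1 and 272 below. Peaks at starts were higher in replicate 2, at a median ratio of 1.57, while the other weak peaks away from starts had a ratio of 0.953, close to that of the coding-sequence peaks. The ratios carry no depth scaling, since the read depth of both libraries is unknown. The most unequal ratios were 0.535 at CG17321 (63.6 in replicate 1 and 34.0 in replicate 2), 0.554 at CG34461 (58.8 and 32.6) and 0.559 at Try29F, a gene for a trypsin-like protease (56.5 and 31.6).

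**Figure D2:**
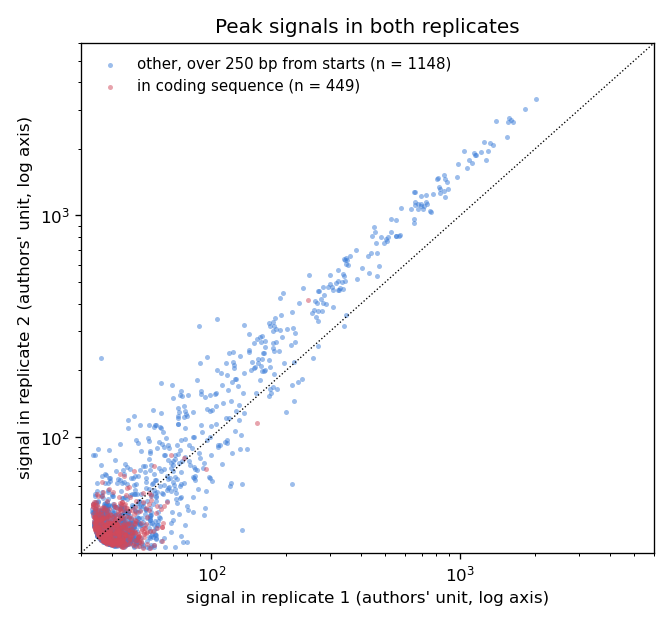
Signal in replicate 2 against replicate 1 (authors' unit, log axes) for peaks with a match in both ranked lists, 449 in coding sequence and 1148 other peaks away from starts; the dotted line marks equal values. The coding-sequence peaks sit in the low corner around the medians of 40.5 and 38.4, and CG2694 stands apart at 246 and 414.

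Few of these peaks were called in a replicate on its own. Only 5 of 458 (1.09%, Wilson interval 0.467% to 2.53%) overlapped a peak in the thresholded list of both replicates, against 332 of 1167 other peaks away from starts (28.4%, interval 25.9% to 31.1%; two-sided Fisher's exact test, adjusted p = 2.1e-46). A further 26 were in the list of replicate 1 alone, 21 in that of replicate 2 alone, and 406 (88.6%) in neither. Among weak peaks only, 0 of 441 coding-sequence peaks and 9 of 726 others were in both lists. This alternative was added after the data were seen (exact test, p = 0.0161, not adjusted). The longer ranked lists of the replicates overlapped nearly all of them, 98.0% of the coding-sequence peaks and 98.4% of the others. There the shares did not pass the test (exact test, p = 0.673, not adjusted). Those lists hold nearly every peak of each class, so this comparison cannot separate the classes and no conclusion is drawn from it. The median rank of a coding-sequence peak was 6138 of 120469 in replicate 1 and 6520 of 118744 in replicate 2. For the other peaks away from starts it was 4691 and 4979. The thresholded lists held only 3781 and 3956 peaks on the arms. The test on both thresholded lists is thus tied to peak strength and is not separate from the weak share.

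The series' other thresholded list, made from both replicates, placed 472 summits by the same rule, 8.56% of its peaks on the arms. It overlapped 275 of the 458 conservative coding-sequence peaks, and the conservative list overlapped 277 of its 472 (58.7%). Of the other weak peaks away from starts it overlapped 476 of 726 (65.6%), and of the strong peaks of all positions 3724 of 3737 (99.7%). The lists therefore held similar numbers of coding-sequence peaks, but not the same set. The thresholded list of replicate 1 alone held 76 such summits, 2.01% of its peaks, and that of replicate 2 held 51, or 1.29%.

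Most of the intervals had a fixed shape. In 454 of 458 (99.1%) the interval was 316 bp long with the summit in its middle. The same length, wherever the summit lay, was found in 99.6% of the other weak peaks away from starts and 23.1% of the peaks at starts. The 23 coding-sequence peaks with signals below 60 included 15 that overlapped another conservative peak. Pairs of summits about 200 bp apart in the same gene had a second member of low signal: in CG9389 the signals were 74.0 and 2.73 at summits 203 bp apart, in H15, a T-box transcription factor gene, 72.6 and 7.18 at 199 bp, and in SecCl, a chloride channel gene, 86.5 and 8.27 at 212 bp. These 3 genes were chosen after their values were seen. In 12 peaks, all with a signal of 35.9 or less, the conservative value was below the replicate 1 value. That replicate 1 value may belong to a neighbouring peak, which was not checked.

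In the authors' ranked list, from which the conservative list was drawn, coding sequence was common. Of 122678 ranked peaks on the arms, 33888 (27.6%) had a summit in coding sequence over 250 bp from starts, while such coding bases make up 15.8% of the length of the arms. Of all ranked peaks 4.31% were in the conservative list, and of the coding ones 458, or 1.35%. The share that passed was thus below the background of the list. At like signal the coding shares of passed and not passed peaks varied by range. Between the quartiles of the coding-sequence peaks, 655 ranked peaks passed, of which 34.8% were coding, and 616 did not pass, of which 28.4% were coding. These limits came from the coding-sequence peaks themselves, so 228 of them lie inside by construction. That favours the coding share of passed peaks, and no conclusion is drawn from it. In single ranges of signal the coding shares of passed and not passed peaks were 35.0% and 33.9% from 60 to 70, 34.5% and 28.4% from 70 to 80, and 28.0% in both from 80 to 90. They were 16.0% and 13.4% from 90 to 100, and 9.36% and 5.66% from 100 to 120. The coding share was thus equal to 3 digits from 80 to 90 and higher among passed peaks in the other 4 of these ranges. It was lower among passed peaks from 20 to 40 (18.8% and 28.8%), 40 to 60 (32.3% and 32.6%) and 120 to 200 (0.859% and 4.44%). Below 20 it was 25.0% and 24.8%. Coding peaks that did not pass numbered only 9 from 90 to 100 and 3 from 100 to 120. In both groups the coding share was low at high signal. No test was made of these shares.

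**Figure D3:**
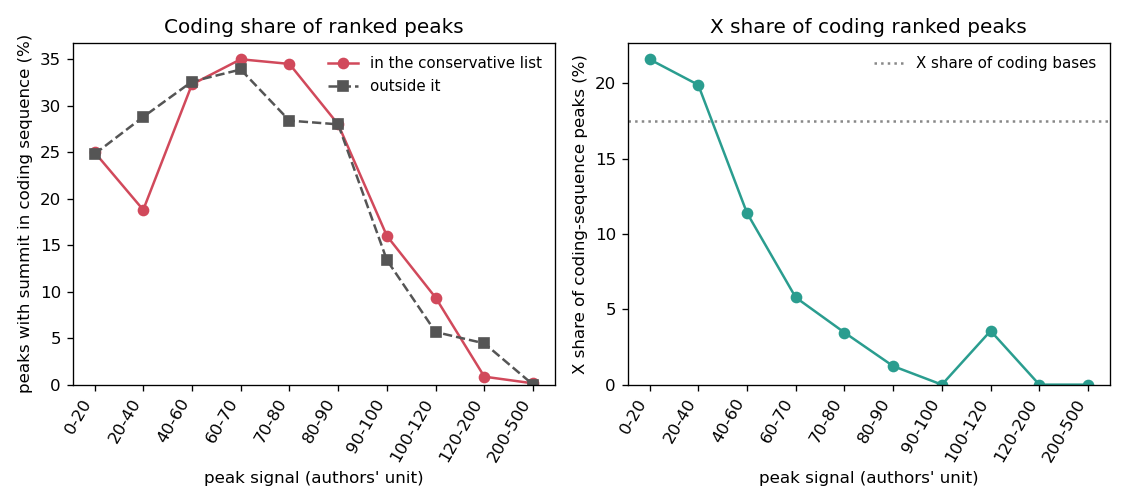
Left, share of ranked peaks with a coding summit (%) by range of the authors' signal, for peaks in the conservative list and outside it; right, share of the coding ranked peaks that lie on the X (%), with the X share of eligible coding bases (17.5%) as a dotted line. The coding share falls from about 35.0% at signals of 60 to 70 to 0.140% of passed peaks at 200 to 500, and the X share falls from 21.6% below 20 to 1.23% at 80 to 90; from 120 on the ranges hold 7 coding peaks or fewer.

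No exact DRE was found within 100 bp of any of the 458 summits, which allows a share of up to 0.655%. The other peaks away from starts held a DRE in 96 of 1167 windows (8.23%, Wilson interval 6.78% to 9.94%; two-sided Fisher's exact test, adjusted p = 1.7e-14). Most of that difference lay with strong peaks, since 88 of the 441 strong others held it and 8 of the 726 weak others (1.10%). Between weak peaks alone the counts were 0 of 441 and 8 of 726 (Fisher's exact test, adjusted p = 0.0334), and this call ended under 7 of 9 alternative settings. Between strong peaks alone, 0 of 17 against 88 of 441 did not pass (exact test, adjusted p = 0.0529). Coding windows of the same length across the genome held the DRE in 0.167% of 105047 cases. Windows 1000 bp to either side of the same summits held it in 7 of 916 (0.764%), and against these the 0 of 458 did not pass the test (exact p = 0.103).

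Looser forms of the site were also no more frequent than in coding sequence at large. All motifs were searched on both strands. A match to TATCGATA with at most 1 mismatch was present in 22 peaks (4.80%), in 5.37% of all coding windows, in 6.20% of the other weak peaks and in 43.8% of the strong others. The inner palindrome ATCGAT, which lies within the DRE, was in 5.68% of the peaks and 7.31% of coding windows. The BEAF-32 site CGATA, which overlaps the DRE, was in 18.6% and 22.6%. Of motifs unrelated to the DRE, the E-box CAGCTG was in 18.1% of the peaks (Wilson interval 14.9% to 21.9%) and 14.2% of coding windows, the GAGA site GAGAG in 25.1% and 22.9%, the Zelda site CAGGTAG in 1.53% and 1.93%, and the TATA box TATAAA in 1.53% and 6.93%. Core promoter motif 7, CATCNCTA, was in 2.18% and 1.42%, the core of motif 1, GGTCACACT, in 0 peaks and 0.0771%, and the scrambled control TACATGAT in 0.437% and 0.418%. Runs of at least 5 CAG or CAA repeats were in 17 peaks (3.71%) and in 2.56% of coding windows. These shares are descriptions with no test, and a missing match says only that these letters are not in the window.

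The sequence at the summits was rich in G and C. The median GC content within 100 bp of the summit was 58.5% (quartiles 54.7% and 62.7%), against 52.2% (47.3% and 56.7%) in the 105047 coding windows. In coding windows 1000 bp from the same summits it was 52.7% (304 windows), in the other weak peaks away from starts 51.7%, and in peaks at starts 39.3%. When the coding windows were divided into 5 parts by GC content, the part lowest in GC held 5 of the peaks (0.238 per 1000 windows) and the parts above it 25, 69, 97 and 262, the last being 57.2% of all the peaks (11.4 per 1000 windows). The difference was present at each codon position, where the GC content of these windows was above that of all coding sequence by 4.99 percentage points at codon position 1, 6.59 at position 2 and 6.75 at position 3. Coding ranked peaks of like signal that did not pass into the conservative list had a median of 59.2% (175 peaks), so high GC content was shared with them, a comparison added after the data were seen. GC content and signal both differ between positions, and the part of base composition in the signal was not tested.

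**Figure D4:**
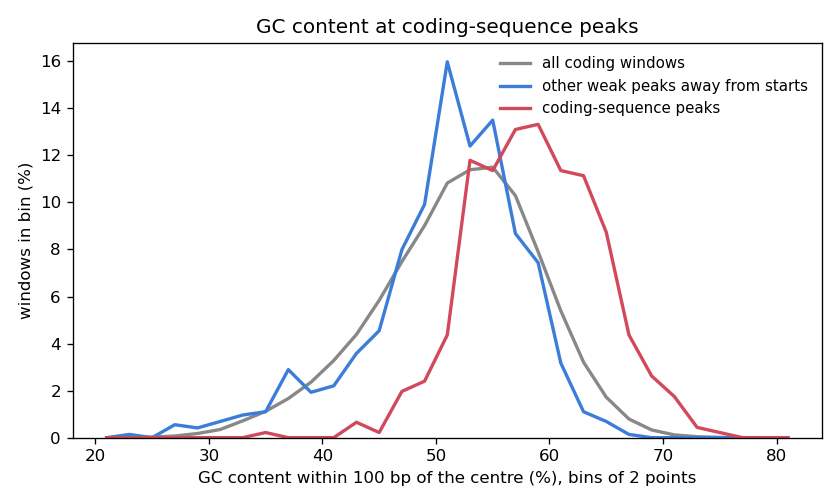
Distribution of GC content (%) within 100 bp of the summit or window centre, as the share of windows in bins of 2 points, for the coding-sequence peaks, the other weak peaks away from starts and all coding windows. The coding-sequence peaks are shifted to the right, with a median of 58.5% against 51.7% and 52.2%.

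Chromosome X was nearly bare of these peaks. It held 9 of 458 (1.97%), although 17.5% of the eligible coding sequence lies there, which is 2.44 peaks per Mb against 26.2 per Mb on arms 2L, 2R, 3L and 3R together. The autosomal arms ranged from 22.0 per Mb on 2R to 29.9 on 3R, and chromosome 4 had none. Among weak peaks 8 of 441 in coding sequence (1.81%, Wilson interval 0.922% to 3.54%) and 56 of 726 others (7.71%, interval 5.99% to 9.88%) were on the X (two-sided Fisher's exact test, adjusted p = 1.1e-05, added after the data were seen). In the single-replicate lists this difference did not pass the exact test, with adjusted p = 0.847 without replicate 1 and p = 0.0615 without replicate 2. The strong others were not short of X positions, with 29.0% there. Of all peaks at starts, weak ones included, 21.4% lay on the X. Of the 17 strong coding-sequence peaks only that in CG2694 did. Among all coding ranked peaks the X share was 17.4%, as in coding sequence, but it went from 21.6% at signals under 20 to 5.79% at 60 to 70, 3.46% at 70 to 80 and 1.23% at 80 to 90. The GC content of X coding windows had a median of 54.7%, above that of all coding windows. Per the labels, no sex was recorded for the embryos, and the part of chromosome copy number was not tested.

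Along the reading frame the peaks were spread much as coding sequence is, apart from a higher share in the first part, which was not tested. From start codon to stop codon, the 5 equal parts of the frame held 91, 88, 86, 91 and 102 peaks. As shares these were 19.9%, 19.2%, 18.8%, 19.9% and 22.3%, where the eligible coding bases fall as 15.9%, 20.5%, 21.2%, 21.3% and 21.0%. The median distance to the nearest start was 1434 bp (quartiles 757 and 3494), close to the 1508 bp of eligible coding bases, and 64.6% of the peaks against 65.6% of those bases were over 1000 bp away. The position was coding in every transcript of the gene for 382 peaks (83.4%), and 245 intervals (53.5%) were coding throughout. The unbroken stretch of coding sequence around the summit, merged over all transcripts, was shorter than for eligible bases, with a median of 476 bp against 768 bp. By exon of the longest reading frame that holds the summit, 37 peaks were in a single coding exon, 59 in the first of several, 219 in an inner one and 143 in the last.

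**Figure D5:**
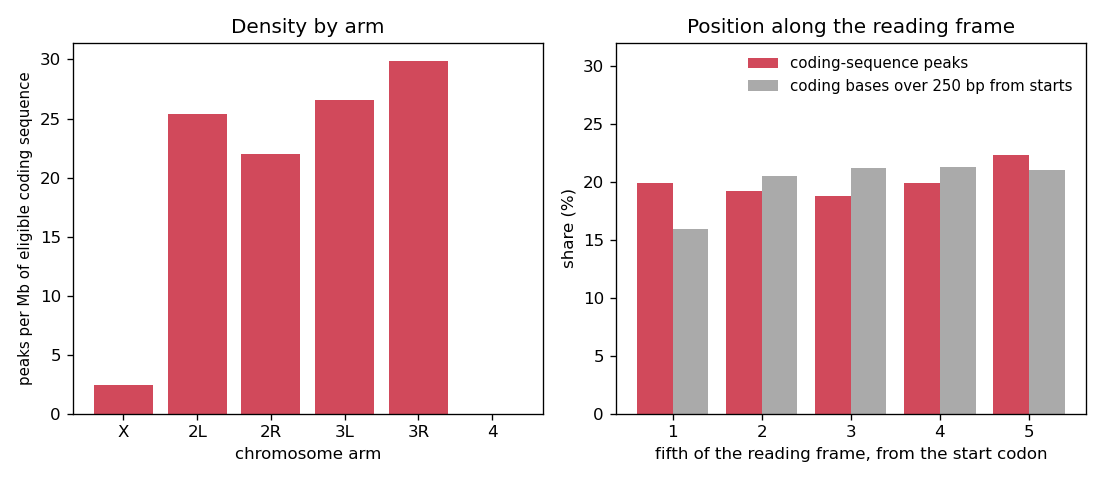
Left, coding-sequence peaks per Mb of eligible coding sequence on each chromosome arm; right, share (%) of the peaks and of eligible coding bases in 5 equal parts of the reading frame from the start codon. The X stands at 2.44 per Mb against 22.0 to 29.9 on the large autosomal arms. The bars along the frame lie between 18.8% and 22.3% for the peaks and between 15.9% and 21.3% for eligible bases. In the first part they stand at 19.9% and 15.9%.

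At the limit of the rule, the members nearest to a start were in Lcp4, a larval cuticle protein gene, at 264 bp (signal 91.6) and in rn, a zinc finger transcription factor gene, at 266 bp (70.4). The coding summits just inside the limit were in CG14495 at 250 bp (89.2) and CG14137 at 248 bp (70.8). The 54 coding summits near starts had a median signal of 84.3, 75.9% were weak, and 3 held a DRE.

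The strongest coding-sequence peak lay in CG2694 on the X, in the gene's coding exon 4 of 7 and 721 bp from the nearest start. This peak's summit was coding in 2 of 3 coding transcripts, and 60.4% of its interval was coding. Its signal was 656 in the list made from both replicates, with 246 in replicate 1 and 414 in replicate 2, and it was the only strong one on the X. It was followed by otp, a homeodomain transcription factor gene, with a signal of 267 (153 in replicate 1 and 116 in replicate 2), 4649 bp from any start. In msn, which encodes a Ste20-family kinase, the signal was 167 (95.3 and 71.6), at a summit coding in 4 of 8 coding transcripts. Uba1, the gene for the ubiquitin-activating enzyme, had 154 (77.4 and 80.4), and CG15117 had 151 (69.1 and 82.6). The 5 peaks in both replicate lists included CG2694, otp, Uba1 and CG15117, while msn was in that of replicate 1 alone. Below them came Jon99Cii, a gut serine protease gene with near-identical neighbours that could share reads, at 132 (59.0 and 74.2), and CG1894 at 129 (66.4 and 50.8). The next were fau at 120 (56.2 and 56.0), Atac3, a gene for a subunit of a histone acetyltransferase complex, at 117 (57.1 and 54.7), and CCT4, a chaperonin subunit gene, at 116 (43.1 and 67.9). Apart from CG2694, all of them lay well below the median of 773 at starts.

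The peaks lay in 432 genes, 3.14% of the 13764 genes with eligible coding sequence. Of these genes 406 held 1 peak, 25 held 2, and CG42795 held 3, with signals of 77.0, 56.3 and 17.3. Among the genes with 2 peaks, those with the highest summed signals were CCT4 (116 and 81.8), CG15635 (102 and 81.1), CG14535 (185 in sum) and CG42674 (96.0 and 80.6). Pde11, a phosphodiesterase gene, had 90.7 and 84.5, Shawl, a potassium channel gene, 84.8 and 84.5, and CG13670 81.5 and 81.2. Genes with a peak offered more coding sequence, with a median eligible length of 1859 bp (quartiles 1155 and 3471) against 1052 bp (519 and 1824) in the other 13332 genes.

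A DREF peak at the gene's own start was no more frequent in these genes. Over all genes 30.6% had a summit within 250 bp of a start. Among the 432 host genes it was 123 (28.5%, Wilson interval 24.4% to 32.9%) and among the other 13513 genes 4149 (30.7%, interval 29.9% to 31.5%). This difference did not pass the two-sided Fisher's exact test (adjusted p = 0.340). The 13513 include genes with no eligible coding sequence, which could hold no coding-sequence peak, while 13332 other genes had some. The answer depended on which genes were compared. Among genes with at least the median eligible coding length of the hosts, 66 of 216 host genes (30.6%) and 1311 of 3234 other genes (40.5%) had a bound start. This comparison was added after the data were seen (two-sided Fisher's exact test, p = 0.00401, not adjusted). For the 17 strong peaks alone 52.9% of host genes had a bound start against 28.0% of other genes, with starts also counted from strong peaks only (exact test, adjusted p = 0.0446).

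Of 799 genes in 19 lists of functional groups, 32 held a peak (4.01%, read against 3.14% of all genes). In the replication list 2 of 42 genes did: Orc6, a subunit of the origin recognition complex, with a signal of 88.1 (45.5 in replicate 1 and 43.8 in replicate 2), and Prim2, a DNA primase subunit, with 77.7 (36.0 and 46.3). Of 21 published DREF targets 2 did: Dref itself at 68.8 (41.9 and 37.5) and osa, a subunit of the Brahma chromatin remodelling complex, with a pair of peaks at 75.3 each. By contrast 27 of the 42 replication genes and 18 of the 21 published targets had a bound start. The densities of coding peaks were 28.9 per Mb of eligible coding sequence in the replication genes and 63.4 in the published targets, from 2 and 3 peaks, where all genes together had 21.7 per Mb.

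Among developmental regulators 4 of 32 segmentation and Hox genes held a peak (12.5%, or 84.7 peaks per Mb), of which pb, a Hox gene, had 98.2 (36.9 and 56.2) and Abd-B, also a Hox gene, 78.6 (41.8 and 39.4). Of 20 BTB and other long-exon regulators 5 did, with 59.1 peaks per Mb, led by kis, a chromatin remodeller gene, at 85.4 (36.3 and 54.2) and kn, a COE-family transcription factor gene, at 81.7 (44.2 and 35.0). The kis peak was also the only 1 among 23 chromatin and polymerase genes (4.35%, 7.38 per Mb). Neither the 20 Notch and E(spl) genes nor the 25 other signalling genes held any, in 31.4 kb and 58.1 kb of eligible coding sequence, where all genes together had 21.7 peaks per Mb. These counts are small, and no list was tested.

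Structural genes had densities both above and below that of all genes. Of 14 basement membrane and matrix genes 4 held a peak, at 25.8 per Mb near the density of all genes, with 85.9 at Ndg, the nidogen gene (43.8 and 43.5), and 82.2 at Mp, a collagen gene (35.0 and 40.2). Of 97 cuticle protein genes 5 did (5.15%), led by Cpr78Ca at 96.6 (55.2 and 43.5) and Lcp4 at 91.6 (43.9 and 50.9). With 5 peaks in 49.3 kb, their density of 102 per Mb was the highest of the 19 lists. Among 22 neuronal and synaptic genes 4 did, at 37.9 per Mb, with 81.6 at brp, an active zone protein gene (38.7 and 47.4), and 81.1 and 79.0 at Nrx-1, the neurexin gene. In 22 junction genes scrib, a polarity scaffold gene, was the only host (7.91 per Mb), at 110 (60.7 and 48.8). In 24 muscle genes, at 9.97 per Mb, Zasp66 had 88.6 and Mlp60A 77.2, both genes of Z-disc or LIM proteins. In 14 actin and tubulin genes Act57B, a muscle actin gene, had 91.8 (40.3 and 56.6), which alone gives 58.2 per Mb. Actin genes resemble each other closely, so that reads there may be shared. In 23 heat shock genes, at 59.6 per Mb from 2 peaks, Hsp22 had 78.6 and Hsc70-1 76.4. In 179 chemoreceptor genes only Gr66a, a bitter receptor gene, had a peak, at 74.7 (4.54 per Mb). Apart from scrib, the signals named for these lists lay between 60 and 100. No peak was in the 93 cytosolic ribosomal protein genes, of which 67 had a bound start, nor in the 115 histone genes, the 14 glycolysis genes or the 7 elongation factor genes. Their eligible coding sequence is short, 35.1 kb for the ribosomal proteins and 29.5 kb for the histones, against the 21.7 peaks per Mb over all genes.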

How the data were processed

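ChIP-seq peaks of DREF-eGFP were analysed from 2 biological replicates of 1 group; nothing was pooled here beyond the authors' own lists. The deposited lists hold, per the notes in the labels, a signal, a −log10 q-value and a score per peak, in dm6 coordinates. The signal is the authors' value of peak strength, and the authors' −log10 q-value has a ceiling of 3.78. Scores, as the authors deposited them, were taken to be scaled irreproducible discovery rates, and the conservative list has none under 830. Thresholded lists were made from each replicate or from both, per the labels. For the aligner, the peak caller and any control, details were not given in the sources used here. No depth is known, and intervals cover the sampling of peaks only. There were 0 columns of other samples.

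Gene models were from Ensembl release 115 (BDGP6.54), with 13945 protein-coding genes on the 6 arms. A summit was a member when it lay in coding sequence over 250 bp from every start. Overlap meant at least 1 bp. Motifs were sought within 100 bp of the summit, and GC content was taken over the same window, against coding windows of that length over 250 bp from starts. Fisher's exact test (two-sided) compared shares, which carry 95% Wilson intervals. In the main setting p-values were adjusted over 6 tests after Benjamini and Hochberg, and in each alternative over the tests of that setting. The limit of a count of 0 is 3 counts. Python 3.11.15, numpy 2.4.6, pandas 2.3.3, scipy 1.17.1, statsmodels 0.14.6 and matplotlib 3.10.9 were used. The classification and motif search were tested on simulated data and recovered the placed summits and sites. The summits were placed with the same gene models, so this checks the code and not the annotation.

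The members, gene lists and tests were chosen with earlier results of these data known. Named genes are those at the 10 strongest members, the 8 with most members, up to 2 per list by signal, the 3 with the most unequal replicates and the 2 either side of the distance limit; the others named are marked. All but 2 names of the gene lists matched the annotation. Alternatives were other lists, distances, windows, positions and limits.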

Additional observations from a re-analysis of the deposited data

How the results depend on the processing

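The replicates form 1 group, so a paired analysis does not arise. Of 83 alternative values, 51 kept their direction and their side of the threshold or stayed within the spread allowed. The weak share kept both under all 6 of its alternatives, but its level was lower in the single-replicate lists. There it was 84.2% in replicate 1, against 23.2% of other peaks away from starts, and 49.0% against 15.2% in replicate 2. The count of 458 became 296 over 1000 bp from starts, 17 with q-values of 0.05 or less, and 51 to 76 in single-replicate lists. The host genes in lists became 21, 1, and 1 to 7 under the same settings. The difference in DRE share (percentage points) was -20.0 among strong peaks (Fisher's exact test, adjusted p = 0.0529) and -0.764 against flanking windows. Among weak peaks it was -0.883 in the other thresholded list, -1.08 and -1.10 over 500 and 1000 bp, -0.826 within 50 bp and -1.89 with 1 mismatch, none past the threshold, and 0 in both single-replicate lists. The share in both replicate lists differed by -0.337 with ranked lists, which hold nearly every peak of each class and so cannot separate them. Host genes with a bound start differed by 0.0547 over 500 bp, by 25.0 for strong peaks, by -12.1 with all hosts against longer genes, by -9.98 with both limited to that length, and by -2.58 to 2.66 in single-replicate lists. The GC difference (main 6.22) was 4.74 within 200 bp of the summit, 6.97 on autosomes, 6.97 to 7.96 in single-replicate lists, and -0.746 against coding ranked peaks of like signal. The share in the first part of the frame was 35.3% for strong peaks and 19.7% to 23.5% in single-replicate lists. The X difference was -8.92 to -3.89 in single-replicate lists. Values of p were adjusted over the tests of each setting, so a setting with 1 test carries no adjustment. The cause of these shifts was not tested. The shorter lists also hold fewer peaks. The X difference and the settings on autosomes, on weak peaks in both lists, on length in both gene groups and on ranked peaks of like signal were chosen after seeing the data. The share in both lists could not be computed for single-replicate lists, nor weak shares among strong peaks.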
